A study of Homo sapiens with 6 samples.

Results

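The aldehyde dehydrogenase (ALDH) genes examined here are 10 enzymes chosen by symbol: ALDH1A1, ALDH1A3, ALDH1B1, ALDH1L2, ALDH2, ALDH3A1, ALDH3A2, ALDH3B1, ALDH7A1 and ALDH9A1. They are 10 of the 23284 genes listed in each table and 10 of the 19 human ALDH genes found there. All 10 passed the filter on low values (at least 1 FPKM in at least 2 of the 6 libraries), as did 12135 genes in all. FPKM counts fragments relative to transcript length and to the total sequenced, which allows levels of different genes to be set side by side per length.

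Bulk RNA sequencing was carried out in 6 libraries of HEC-1B, an established human endometrioid carcinoma cell line, in 3 groups of 2. The high-potential accelerated group carries a high ALDH potential label together with accelerated transition to the ALDH-high state. The parental accelerated group carries the accelerated label alone, and the high-to-low group is named for a transition from ALDH-high to low. All groups share the cell line and the RNA and library kits, and flow sorting told whether the transition of ALDH1A1-low cells was accelerated. The labels give no treatment, no time and no sorting gate, do not say how the high-potential cells were derived, and name no high-potential high-to-low group, so that the high-potential label and the transition cannot be told apart against high-to-low. The description fields of all 6 libraries, the high-to-low ones included, carry the term ALDH-high, and end in a code whose meaning they do not give: replicate 2 of both accelerated groups has one start and the other 4 libraries another. No source says whether replicates were separate cultures, so a p-value here reflects variation between libraries that may be technical alone.

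ALDH enzymes oxidise aldehydes to carboxylic acids with NAD or NADP. The ALDH1A enzymes turn retinaldehyde into retinoic acid, and the mitochondrial ALDH2 and ALDH1B1 clear acetaldehyde and products of lipid peroxidation. Other members act on fatty aldehydes, folate, lysine and betaine intermediates. High ALDH activity, often with ALDH1A1 as the enzyme behind it, is used to mark stem-like cells in carcinomas, endometrial carcinoma among them. In bulk RNA, more cells that express a gene and more RNA per cell cannot be told apart.

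Relative depth was 1 and 0.807 in the high-potential libraries, 0.93 and 0.909 in parental accelerated libraries and 1.07 and 0.935 in high-to-low libraries, with high-potential replicate 1 set at 1. Total depth is not given in the sources used here, so no counting interval is given. Of 7 epithelial and endometrial markers, KRT18 was between 290.6 and 464.4 FPKM and PAX8 between 123.1 and 188.9, KRT19 between 16.9 and 46.0, SOX17 at or below 2.58 and CDH1, the E-cadherin gene, at or below 0.0868. The other 2 were lower in both high-potential libraries than in any parental one. KRT8 was 49.4 and 47.1 FPKM in high-potential, 96.9 and 104.1 in parental accelerated and 90.6 and 107.7 in high-to-low libraries (limma adjusted p = 0.073 against high-to-low and 0.0863 against parental accelerated). EPCAM was 3.49 and 2.16 FPKM in high-potential, 5.82 and 4.43 in parental accelerated and 6.17 and 10.6 in high-to-low libraries (limma adjusted p = 0.125 and 0.408 in the same order). The part of these markers in the ALDH differences of high-potential cells was not tested. Markers of other cell types were low in every library: the summed FPKM was 0.769 to 2.56 for 6 leukocyte markers, 0.0113 to 0.991 for 4 endothelial markers and 0.12 to 0.603 for 5 fibroblast markers. CD3E, PECAM1 and DCN are listed at 0 in all 6 libraries. Across all tested genes each parental library was most like the same-numbered library of the other parental group. The Pearson correlation of log2(FPKM + 1) was 0.964 between the replicate 1 libraries of these groups and 0.948 between their replicate 2 libraries. It was 0.932 within the parental accelerated group and 0.947 within the high-to-low group. The library labelled parental accelerated replicate 1 also stands apart from its replicate for ALDH1A1, as given next.

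ALDH1A1, the cytosolic retinaldehyde dehydrogenase named in the study's design, was the most abundant member in 3 libraries and a middling one in the others. It stood at 352.5 and 303.6 FPKM in high-potential accelerated libraries, at 26.7 and 316.9 FPKM in parental accelerated libraries and at 28.4 and 9.45 FPKM in high-to-low libraries. Parental accelerated replicate 1 thus lay inside the high-to-low range, and replicate 2 inside the high-potential range. The libraries of these groups with the same code start are the same-numbered ones, so ALDH1A1 was far higher in the high-potential library within the replicate 1 pair, and similar in both libraries within the replicate 2 pair. Among the 12135 tested genes of its own library, the level of ALDH1A1 was above 98.8% and 98.1% of genes in the high-potential libraries. It was above 67.2% and 98.3% in parental accelerated libraries and above 68.3% and 41.3% in high-to-low libraries.

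The groups are named for ALDH state, so a difference in ALDH1A1 between them may partly follow from how they were defined. This holds for its level and for its share of a sum, and was not tested. On the log2(FPKM + 1) scale, which understates the change of low genes, high-potential accelerated minus high-to-low was 4.23 for ALDH1A1 (SE 1.09, 95% interval 1.58 to 6.87, limma adjusted p = 0.127). The difference did not pass the threshold of 0.05, and the limma adjusted p ranged from 0.0362 to 0.447 over the alternatives tried. The difference stayed at 4.23 without parental accelerated replicate 1, without replicate 2 and without both. Without both it passed (limma adjusted p = 0.0362), with an SE of 0.486, so the SE changed and the difference did not. Parental accelerated minus high-to-low was 2.42 (SE 1.09, limma adjusted p = 1), and it was 4.18 without parental accelerated replicate 1 and 0.66 without replicate 2. High-potential minus parental accelerated was 1.81 (SE 1.09, limma adjusted p = 0.527), and it was 0.05 without parental accelerated replicate 1 and 3.57 without replicate 2. With both accelerated groups against high-to-low the difference was 3.33 (SE 0.946, limma adjusted p = 0.462; two-sided exact permutation p = 0.133, where the smallest possible is 0.0667). That difference was 4.21 without parental accelerated replicate 1 and 2.44 without replicate 2.

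**Figure D1:**
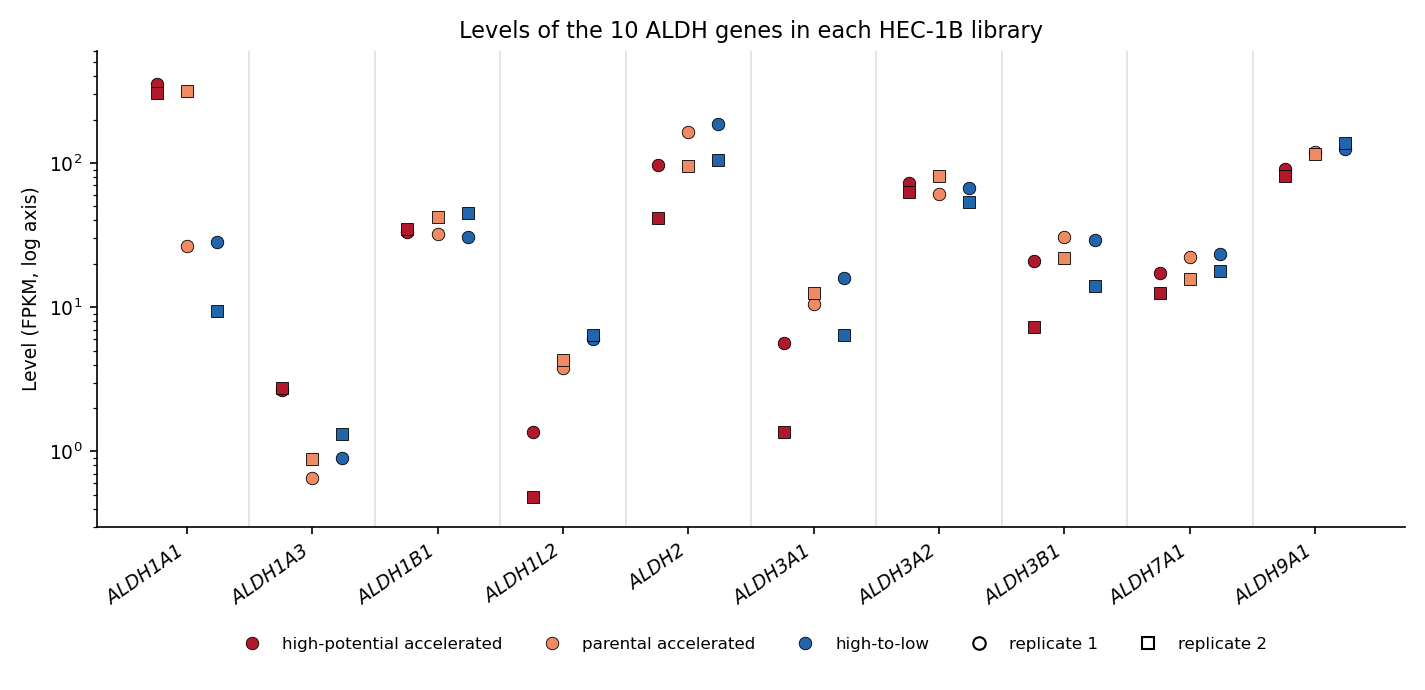
Levels of the 10 ALDH genes in FPKM on a log axis, with 1 point per library, coloured by group and shaped by replicate number. ALDH1A1 lies between 303.6 and 352.5 FPKM in 3 libraries and between 9.45 and 28.4 FPKM in the other 3, and ALDH1L2 is lower in both high-potential libraries (0.48 and 1.36 FPKM) than in any other.

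ALDH1A3, the other retinaldehyde dehydrogenase of the set, was far less abundant than ALDH1A1 in each library. It was 2.65 and 2.74 FPKM in high-potential accelerated libraries, 0.654 and 0.882 FPKM in parental accelerated libraries and 0.901 and 1.33 FPKM in high-to-low libraries. Both high-potential libraries lay above all 4 parental ones, and the parental accelerated libraries lay just below the high-to-low ones. High-potential exceeded parental accelerated by 1.07 (SE 0.242, limma adjusted p = 0.129) and high-to-low by 0.81 (SE 0.242, limma adjusted p = 0.161), neither of which passed. ALDH1A3 reached 1 FPKM in both high-potential libraries and in high-to-low replicate 2, so it passed the filter only with the high-potential libraries. In parental accelerated replicate 2, where ALDH1A1 was high, ALDH1A3 was 0.882 FPKM, within the range of the libraries where ALDH1A1 was low.

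The promoter windows of these retinaldehyde dehydrogenases are shown because these genes have the greatest positive differences between high-potential and high-to-low libraries among the 10. Of the 10 members, 7 have entries in the RefSeq promoter table used (GRCh38.p14, a later build than the hg19 of the expression files), and the 250 bases before each annotated start were read on the strand of the gene. The ALDH1A1 window is chr9:72953054-72953303 on the minus strand and the ALDH1A3 window is chr15:100879581-100879830 on the plus strand. Capitals mark the CCAAT box, a motif bound by NF-Y:
ALDH1A1: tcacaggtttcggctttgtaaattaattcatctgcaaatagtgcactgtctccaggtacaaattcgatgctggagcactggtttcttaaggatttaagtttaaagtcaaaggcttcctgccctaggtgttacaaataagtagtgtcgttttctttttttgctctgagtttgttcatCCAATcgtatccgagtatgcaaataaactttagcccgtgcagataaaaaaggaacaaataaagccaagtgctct
ALDH1A3: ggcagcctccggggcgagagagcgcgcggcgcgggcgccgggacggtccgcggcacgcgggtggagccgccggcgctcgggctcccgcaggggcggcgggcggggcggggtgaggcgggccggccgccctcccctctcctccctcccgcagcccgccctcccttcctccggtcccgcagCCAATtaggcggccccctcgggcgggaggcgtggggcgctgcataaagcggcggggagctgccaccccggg
In both windows CCAAT stands at nearly the same distance from the start, at positions -74 to -70 in ALDH1A1 and -71 to -67 in ALDH1A3. The base composition differs: G and C make up 38.4% of the ALDH1A1 window with 6 CpG sites, and 82.4% of the ALDH1A3 window with 38. Among all 35116 windows in the table, 10.1% had a lower GC content than ALDH1A1 and 98.6% a lower one than ALDH1A3. The windows of ALDH1B1, ALDH3B1, ALDH3A2, ALDH7A1 and ALDH9A1 had between 55.6% and 73.2%.

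CCAAT on either strand was found for 5 of the 7 members, namely ALDH1A1, ALDH1A3, ALDH1B1, ALDH3A2 and ALDH7A1. It stood at -63 to -59 in ALDH7A1 and at -30 to -26 in ALDH3A2. In ALDH1B1 it stood at -26 to -22 on the opposite strand. How often CCAAT stands at such positions over all windows was not counted. The 7 members have 9 windows, and 5 of 9 held it, where 32.0% of all windows did. Another 7 motifs were searched on both strands: TATAAA (10.7% of all windows), ATAAAA (14.8%), TGANTCA (6.57%), TGATGNAA (3.14%), AGGTCA (12.1%), TGACNNNGC (10.9%) and AGATAA (9.17%). In the members only ALDH1A1 held any of these 7, with AGATAA at -34 to -29 and ATAAAA overlapping it at -32 to -27. A run of TATAAAA counts for both TATAAA and ATAAAA. These matches describe letters in a window and were not tested for binding.

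ALDH1L2, the mitochondrial enzyme that oxidises formyl-tetrahydrofolate, was the member with a call in the fit of all 6 libraries without a block. It was 1.36 and 0.48 FPKM in high-potential accelerated libraries, 3.77 and 4.29 FPKM in parental accelerated libraries and 6.03 and 6.43 FPKM in high-to-low libraries. The groups did not overlap in any pairing, with high-potential lowest and high-to-low highest. In high-potential cells it fell by 1.95 against high-to-low (SE 0.285, 95% interval -2.64 to -1.26, limma adjusted p = 0.0496). The call rests close to the threshold: over the alternatives, it was kept with a replicate block (limma adjusted p = 0.0224) and without the variance trend (adjusted p = 0.043), and it was lost with median ratio scaling (adjusted p = 0.0539), under the other alternatives and with any 1 library left out, over which limma adjusted p reached 0.315. High-potential minus parental accelerated was -1.43 (SE 0.285, limma adjusted p = 0.112), which passed with the replicate block (limma adjusted p = 0.0497, the lowest of the alternatives, which reached 0.46). Parental accelerated minus high-to-low was -0.52 (SE 0.285, limma adjusted p = 1).

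Other enzymes of folate one-carbon metabolism were described beside ALDH1L2. Of 11 listed genes 10 were tested, and 0 passed in high-potential against high-to-low or in the other 3 comparisons by limma. The median difference between high-potential and high-to-low libraries was -0.18, against -0.01 over all tested genes, with 4 of 10 above 0. The most abundant were TYMS, thymidylate synthase, at 173.9 and 320.4 FPKM in high-potential, 240.4 and 426.0 in parental accelerated and 262.7 and 397.0 in high-to-low libraries, and SHMT2, the mitochondrial serine hydroxymethyltransferase. SHMT2 was 166.4 and 85.8 FPKM in high-potential, 147.4 and 182.5 in parental accelerated and 174.1 and 226.1 in high-to-low libraries. ALDH1L1, the cytosolic counterpart of ALDH1L2, is listed at 0 in all 6 libraries.

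ALDH2, the mitochondrial enzyme that clears acetaldehyde, was among the 4 most abundant members in each library. It was 96.6 and 41.6 FPKM in high-potential accelerated libraries, 164.1 and 94.98 FPKM in parental accelerated libraries and 184.9 and 105.7 FPKM in high-to-low libraries. In each group replicate 1 was above replicate 2, by 2.32 times in high-potential, 1.73 times in parental accelerated and 1.75 times in high-to-low cells. Replicate 1 was also above replicate 2 in all 3 groups for ALDH3B1 and ALDH7A1, and replicate 2 above replicate 1 for ALDH1A3 and ALDH1B1. Over all tested genes the shares with these orders were 24.5% and 24.7%. Without a replicate block, high-potential minus high-to-low was -1.13 for ALDH2 (SE 0.491, limma adjusted p = 0.295) and high-potential minus parental accelerated was -0.97 (SE 0.491, limma adjusted p = 0.443). With the block the same differences had an SE of 0.155 and passed (limma adjusted p = 0.0215 against high-to-low and 0.0374 against parental accelerated). The pairing behind the block was read from the expression values themselves, and no label gives it. With the label code term in place of the block, the difference from high-to-low was -0.63 (limma adjusted p = 0.415). Over the alternatives the limma adjusted p for ALDH2 ran from 0.0215 to 0.731 in the first comparison and from 0.0374 to 0.894 in the second. Without high-potential replicate 2 they were -0.53 and -0.37, and without high-potential replicate 1 they were -1.73 and -1.57. Leaving out high-to-low replicate 1 gave -0.73 for the first, and leaving out parental accelerated replicate 1 gave -0.57 for the second. None of these passed in the fit without a block.

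ALDH1B1, the other mitochondrial acetaldehyde enzyme, varied least of the 10 with ALDH3A2. It was 33.4 and 34.8 FPKM in high-potential accelerated libraries, 32.2 and 42.4 FPKM in parental accelerated libraries and 30.4 and 44.8 FPKM in high-to-low libraries. The highest library was 1.47 times the lowest, and the 3 groups overlapped. High-potential minus high-to-low was -0.11 (95% interval -0.72 to 0.49, limma adjusted p = 0.853).

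**Figure D2:**
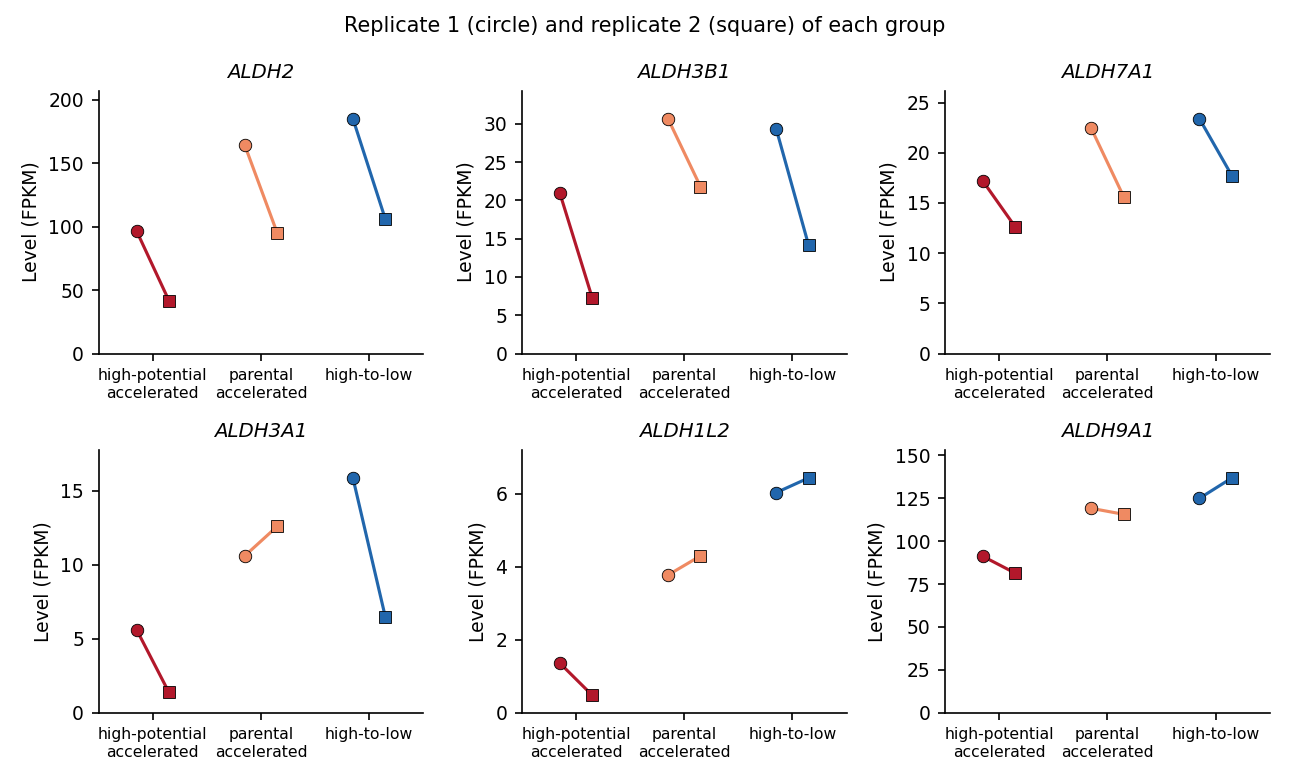
Levels of 6 ALDH genes in FPKM in each group, with a line from replicate 1 (circle) to replicate 2 (square). ALDH2, ALDH3B1 and ALDH7A1 are higher in replicate 1 in all 3 groups, and for ALDH1L2 and ALDH9A1 the 3 groups do not overlap.

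The class 3 enzymes act mainly on fatty and aromatic aldehydes, and none of the 3 was called in any comparison. ALDH3A1, a cytosolic enzyme also known as a corneal crystallin, was 5.61 and 1.37 FPKM in high-potential accelerated libraries, 10.6 and 12.6 FPKM in parental accelerated libraries and 15.9 and 6.45 FPKM in high-to-low libraries. Both high-potential libraries lay below all 4 parental ones. The difference was -1.50 against high-to-low (SE 0.57, limma adjusted p = 0.243) and -1.66 against parental accelerated (SE 0.57, limma adjusted p = 0.266), and without high-potential replicate 2 it was -0.76 and -0.92. Leaving out high-to-low replicate 1 gave -0.91 against high-to-low.

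ALDH3A2, the microsomal fatty aldehyde dehydrogenase, was 72.3 and 63.3 FPKM in high-potential accelerated libraries, 61.1 and 80.7 FPKM in parental accelerated libraries and 66.6 and 53.9 FPKM in high-to-low libraries. Its highest library was 1.497 times its lowest, the groups overlapped and high-potential minus high-to-low was 0.17 (95% interval -0.36 to 0.71, limma adjusted p = 0.73). In the RefSeq gene table (GRCh38.p14) ALDH3A2 and ALDH3A1 lie on chromosome 17 with SLC47A2 between them as the next coding gene of each. ALDH3B1, which acts on medium- and long-chain aldehydes, was 21.0 and 7.25 FPKM in high-potential accelerated libraries, 30.7 and 21.8 FPKM in parental accelerated libraries and 29.4 and 14.1 FPKM in high-to-low libraries. Its high-potential range overlapped that of high-to-low but lay below that of parental accelerated cells (difference -0.997, SE 0.535, limma adjusted p = 0.466). That difference was -1.70 without high-potential replicate 1 and -0.29 without high-potential replicate 2.

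ALDH9A1, which makes gamma-aminobutyric acid and carnitine precursors from their aldehydes, was 91.1 and 81.3 FPKM in high-potential accelerated libraries, 119.1 and 115.6 FPKM in parental accelerated libraries and 124.9 and 136.8 FPKM in high-to-low libraries. The 3 groups did not overlap, with high-potential lowest and high-to-low highest. High-potential minus high-to-low was -0.60 (SE 0.176, 95% interval -1.02 to -0.17, limma adjusted p = 0.158) and high-potential minus parental accelerated was -0.44 (SE 0.176, limma adjusted p = 0.328). Parental accelerated minus high-to-low was -0.15 (SE 0.176, limma adjusted p = 1), and none of these passed.

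ALDH7A1, which oxidises the semialdehyde formed in lysine breakdown, was 17.2 and 12.6 FPKM in high-potential accelerated libraries, 22.4 and 15.6 FPKM in parental accelerated libraries and 23.4 and 17.7 FPKM in high-to-low libraries. High-potential lay just below high-to-low (difference -0.44, SE 0.274, limma adjusted p = 0.448) and overlapped parental accelerated cells (-0.33, limma adjusted p = 0.658). The first difference was -0.23 without high-potential replicate 2, and leaving out high-to-low replicate 1 gave -0.25. The second was -0.12 without high-potential replicate 2 and -0.0816 without parental accelerated replicate 1, and -0.54 without high-potential replicate 1 and -0.58 without parental accelerated replicate 2.

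Read across the 10 members, differences between high-potential and high-to-low cells ran from 4.23 for ALDH1A1 to -1.95 for ALDH1L2, with 3 positive and 7 negative. Limma called 1 of 10 members in that comparison, ALDH1L2, the lower one, where 0.799% of all tested genes were called, and 2 of 10 with the replicate block, ALDH1L2 and ALDH2, where 7.78% were. At an unadjusted p under 0.05 stood 5 of 10 members, where 18.4% of all genes did. ALDH1A3 passed the filter only with the high-potential libraries, where it was highest, so its part in these counts is a description. Libraries did not overlap for 2 members higher in high-potential cells, ALDH1A1 and ALDH1A3, where 24.7% of genes were higher in this way. They did not overlap for 5 members lower in high-potential cells, ALDH1L2, ALDH2, ALDH3A1, ALDH7A1 and ALDH9A1, where 26.4% of genes were. The median difference over the 10 was -0.52, against -0.01 over all tested genes.

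Between the accelerated groups limma called 0 of 10 members, where 0.494% of genes were called, and 4 of 10 had an unadjusted p under 0.05, where 14.3% of genes did. With the replicate block ALDH1L2 and ALDH2 were called, 2 of 10, where 4.5% of genes were. ALDH1A3 was higher without overlap in high-potential cells (1 of 10, where 21.1% of genes were), and ALDH1L2, ALDH3A1, ALDH3B1 and ALDH9A1 were lower (4 of 10, where 22.3% of genes were). The median difference was -0.39, against 0.00 over all tested genes. Set against all 4 parental libraries, both high-potential libraries were higher for ALDH1A3 (1 of 10, where 15.3% of genes were) and lower for ALDH1L2, ALDH3A1 and ALDH9A1 (3 of 10, where 17.5% of genes were). The filter limit given above for ALDH1A3 holds for these counts too.

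In parental accelerated against high-to-low cells limma called 0 of 10 members, where 0.0165% of genes were called, and 0 of 10 had an unadjusted p under 0.05, where 0.972% of genes did. No member was higher without overlap, where 11.4% of genes were. ALDH1A3, ALDH1L2 and ALDH9A1 were lower without overlap (3 of 10, where 12.7% of genes were). The median difference was -0.06, against -0.02 over all tested genes, and apart from ALDH1A1 the members' differences lay between -0.52 and 0.33. With both accelerated groups together against high-to-low, limma called 0 of 10 members, where 0.0659% of genes were called, and 3 of 10 had an unadjusted p under 0.05, where 9.25% of genes did. In that comparison ALDH1L2 and ALDH9A1 were lower without overlap (2 of 10, where 6.73% of genes were). The 4 comparisons share libraries, so their values are not independent of each other.

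**Figure D3:**
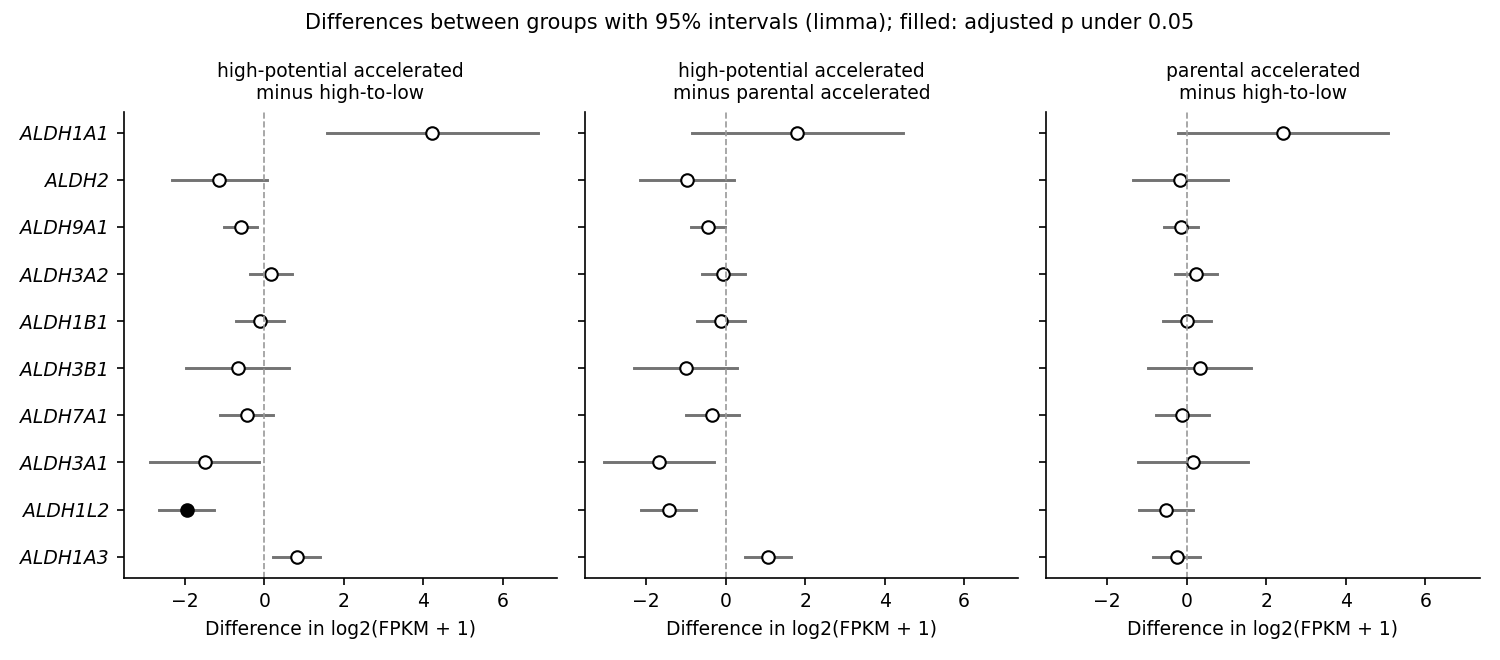
Differences in log2(FPKM + 1) for the 10 ALDH genes in 3 comparisons, with points for the fitted difference and bars for its 95% interval from limma. The filled point, ALDH1L2 at -1.95 in high-potential minus high-to-low libraries, is the only one with an adjusted p under 0.05.

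High-potential replicate 2 had the lowest level of the 6 libraries for 6 of the 10 members (ALDH1L2, ALDH2, ALDH3A1, ALDH3B1, ALDH7A1 and ALDH9A1), where it was lowest for 21.7% of all tested genes. It is also the shallowest library, at a relative depth of 0.807, and the part of depth in these values was not tested. The number of members called in high-potential against high-to-low was 0 without it, and likewise without high-potential replicate 1 or either high-to-low library. Over all genes 15 were called without it, against 97 with all 6 libraries, and 22, 21 and 13 without high-potential replicate 1, high-to-low replicate 1 and high-to-low replicate 2.

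The 10 members were then added up, first with and then without ALDH1A1. Together they summed to 693.7 and 548.9 FPKM in high-potential accelerated libraries, 471.3 and 705.7 FPKM in parental accelerated libraries and 510.6 and 396.7 FPKM in high-to-low libraries. High-potential averaged 621.3 ± 102.4 FPKM and high-to-low 453.7 ± 80.6 FPKM (SD, n = 2 each; two-sided exact permutation p = 0.333, the smallest that 2 against 2 allow). Without ALDH1A1 the other 9 summed to 341.2 and 245.3 FPKM in high-potential accelerated libraries, 444.7 and 388.8 FPKM in parental accelerated libraries and 482.3 and 387.2 FPKM in high-to-low libraries. High-potential libraries thus lay above high-to-low ones with ALDH1A1 in the sum, and below those of both other groups without it (exact permutation p = 0.333 each, again the smallest possible). The difference of 167.6 FPKM between high-potential and high-to-low with ALDH1A1 in the sum was 95.2 without high-potential replicate 1 and 240 without high-potential replicate 2, and leaving out high-to-low replicate 2 gave 110.7. As a percent of all FPKM in a library, the 10 members held 0.134% and 0.0917% in high-potential, 0.0883% and 0.127% in parental accelerated and 0.092% and 0.0694% in high-to-low libraries. On that scale high-potential and high-to-low libraries overlapped (exact permutation p = 0.667).

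ALDH1A1 made up 50.8% and 55.3% of the summed FPKM in high-potential accelerated libraries, 5.66% and 44.9% in parental accelerated libraries and 5.55% and 2.38% in high-to-low libraries. Its share was higher in every accelerated library than in either high-to-low library, although parental accelerated replicate 1 exceeded high-to-low replicate 1 by little. The exact permutation p was 0.133 for the 4 accelerated against the 2 high-to-low libraries, where 0.0667 is the smallest possible. Parental accelerated minus high-to-low was 21.3 percentage points, against 40.9 without parental accelerated replicate 1 and 1.69 without replicate 2. High-potential minus parental accelerated was 27.8 percentage points, against 8.16 without parental accelerated replicate 1 and 47.4 without replicate 2. ALDH1A1 led in both high-potential libraries and in parental accelerated replicate 2, ALDH2 led in replicate 1 of the parental accelerated and of the high-to-low group, and ALDH9A1 led in high-to-low replicate 2.

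ALDH2 held 13.9% and 7.57% of the sum in high-potential accelerated libraries, 34.8% and 13.5% in parental accelerated libraries and 36.2% and 26.6% in high-to-low libraries. ALDH9A1 held 13.1% and 14.8% in high-potential accelerated libraries, 25.3% and 16.4% in parental accelerated libraries and 24.5% and 34.5% in high-to-low libraries. ALDH3A2 kept between 10.4% and 13.6% of the sum in all 6 libraries, and ALDH1B1 between 4.82% and 11.3%. ALDH1L2 held 0.196% and 0.0874% in high-potential accelerated libraries, 0.8% and 0.608% in parental accelerated libraries and 1.18% and 1.62% in high-to-low libraries. For the share of ALDH1L2 the 4 accelerated libraries lay below both high-to-low libraries (exact permutation p = 0.0667, the smallest possible). ALDH3B1 held 1.32% to 6.50%, ALDH7A1 2.21% to 4.76%, ALDH3A1 0.249% to 3.10% and ALDH1A3 0.125% to 0.5%.

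**Figure D4:**
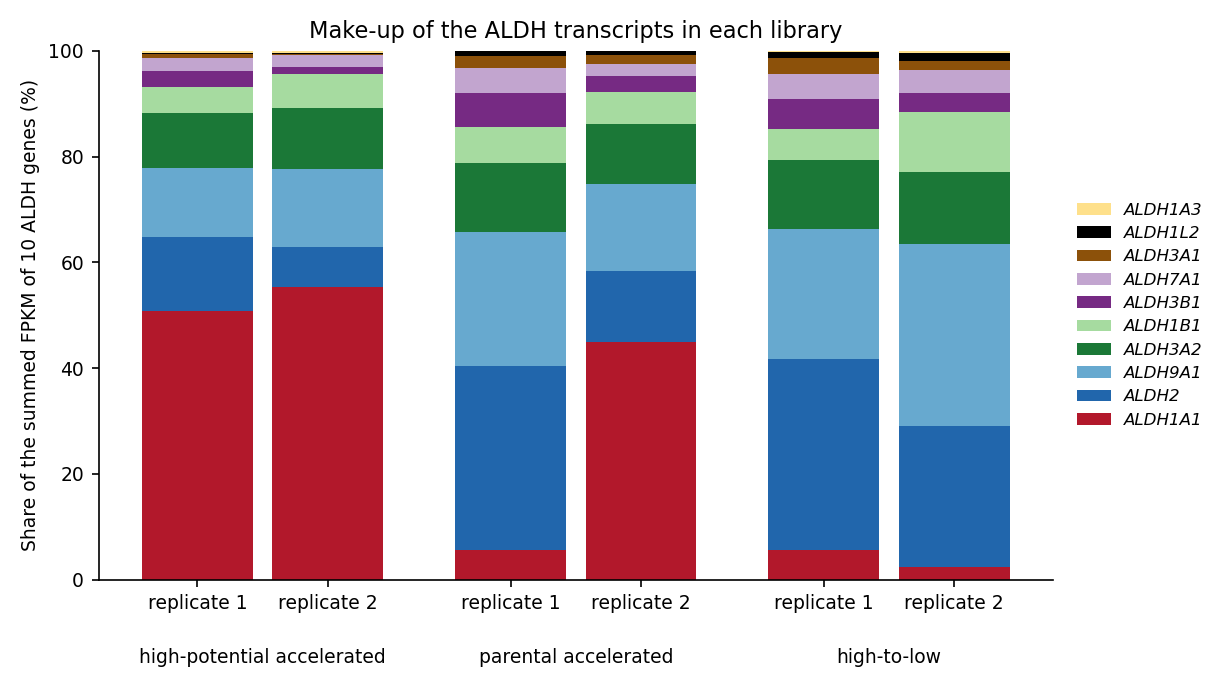
Share of each enzyme in the summed FPKM of the 10 ALDH genes, in percent, with 1 stacked bar per library. ALDH1A1 makes up 50.8% and 55.3% in high-potential accelerated libraries, 5.66% and 44.9% in parental accelerated libraries and 5.55% and 2.38% in high-to-low libraries.

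Shares of a sum that ALDH1A1 dominates move with ALDH1A1, so they were also taken over the other 9 members. There ALDH2 held 28.3% and 16.9% in high-potential accelerated libraries, 36.9% and 24.4% in parental accelerated libraries and 38.3% and 27.3% in high-to-low libraries, which overlapped between all groups. ALDH9A1 held 26.7% and 33.1% in high-potential, 26.8% and 29.7% in parental accelerated and 25.9% and 35.3% in high-to-low libraries. ALDH3A2 held 21.2% and 25.8% in high-potential, 13.7% and 20.8% in parental accelerated and 13.8% and 13.9% in high-to-low libraries. Thus the share of ALDH3A2 was higher in both high-potential libraries than in any parental library (exact permutation p = 0.333 against either group, the smallest possible). It exceeded that of parental accelerated replicate 2 by little (21.2% against 20.8%). The level of ALDH3A2 itself overlapped between the groups, and a share also moves with the other members of the sum. ALDH1L2 held 0.399% and 0.196% in high-potential, 0.848% and 1.11% in parental accelerated and 1.25% and 1.66% in high-to-low libraries, again without overlap between the groups. Over these 9 members the exact permutation p for the ALDH1L2 share in accelerated against high-to-low libraries was 0.133, where 0.0667 is the smallest possible.

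Of the 9 other human ALDH genes in the files, 5 were tested, and limma called 0 of 5 in each of the 4 comparisons. At an unadjusted p under 0.05 stood ALDH16A1 alone, 1 of 5, in high-potential against parental accelerated cells (difference 0.46, limma adjusted p = 0.33). Of all genes 14.3% did in that comparison. ALDH18A1, which makes the precursor of proline, was the most abundant, at 58.2 and 53.3 FPKM in high-potential, 56.8 and 64.6 in parental accelerated and 65.2 and 59.7 in high-to-low libraries. ALDH6A1, an enzyme of valine breakdown, was 52.1 and 20.1 FPKM in high-potential, 46.8 and 38.6 in parental accelerated and 40.8 and 32.1 in high-to-low libraries. ALDH1A2, the remaining retinaldehyde dehydrogenase, reached 0.298 FPKM at most, ALDH8A1 0.257 and ALDH3B2 0.175.

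Genes that make or remove aldehydes by other routes were counted in the same way. Of 18 listed symbols of alcohol, retinol and retinal oxidoreductases 17 were found and 8 were tested, and limma called 0 of 8 in each comparison. At an unadjusted p under 0.05 stood RDH10 alone, 1 of 8, in high-potential against high-to-low and against parental accelerated cells. Of all genes 18.4% and 14.3% did. The median difference between high-potential and high-to-low libraries was 0.14. RDH11, a retinal reductase, was 108.9 and 95.5 FPKM in high-potential, 80.4 and 82.4 in parental accelerated and 84.2 and 78.1 in high-to-low libraries. RDH10, which makes retinaldehyde from retinol, was 163.7 and 127.8 FPKM in high-potential, 43.2 and 11.0 in parental accelerated and 40.4 and 22.1 in high-to-low libraries. Parental accelerated replicate 2 thus had the lowest RDH10 of the 6 libraries beside one of the highest ALDH1A1 levels. Of 10 aldo-keto and carbonyl reductases 9 were tested and 0 were called by limma in any comparison, with a median of 0.01 in high-potential against high-to-low. At an unadjusted p under 0.05 stood 4 of 9 in high-potential against high-to-low (AKR1B1, AKR1B10, AKR1C1 and AKR1C3), where 18.4% of all genes did. Against parental accelerated cells 3 of 9 did (AKR1B1, AKR1C1 and AKR1C3), where 14.3% of all genes did. In parental accelerated against high-to-low and in both accelerated groups together 0 of 9 did, where 0.972% and 9.25% of all genes did. Among them AKR1B1, aldose reductase, was 338.0 and 674.9 FPKM in high-potential, 154.8 and 220.1 in parental accelerated and 184.0 and 239.6 in high-to-low libraries. AKR1C3 was 118.8 and 74.2 FPKM in high-potential, 221.3 and 229.7 in parental accelerated and 241.9 and 131.6 in high-to-low libraries. The AKR1C genes are close copies of each other, so the split of reads among them is uncertain. AKR1B10 passed the filter only with the high-potential libraries, where its mean was highest, so its place in the 4 of 9 is a description.

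Of 10 genes that bind, break down or sense retinoic acid or take up retinol 7 were tested. Limma called STRA6, the receptor for retinol uptake, in high-potential against high-to-low (1 of 7, adjusted p = 0.00607) and against parental accelerated cells (1 of 7, adjusted p = 0.00597). Of all genes 0.799% and 0.494% were called there, and limma called 0 of 7 in the other 2 comparisons. STRA6 was 9.74 and 11.4 FPKM in high-potential and 0.189 and 0 in parental accelerated libraries, and both high-to-low libraries list it at 0. CYP26A1, a retinoic acid breakdown enzyme, was 4.31 and 15.7 FPKM in high-potential, 0.153 and 0.314 in parental accelerated and 0.709 and 0 in high-to-low libraries (limma adjusted p = 0.0824 against high-to-low and 0.105 against parental accelerated). At an unadjusted p under 0.05 stood 2 of 7 in high-potential against high-to-low (18.4% of all genes) and against parental accelerated cells (14.3%). Both accelerated groups against high-to-low also gave 2 of 7 (9.25% of all genes), and the 2 were STRA6 and CYP26A1 each time. Both genes reached 1 FPKM in the high-potential libraries alone and so passed the filter only through the group where they are high, which leaves their calls and counts as a description.

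The genes whose pattern over the 6 libraries was most like that of ALDH1A1 were found by the root mean square difference between profiles of log2(FPKM + 1), each centred on its mean. For ALDH1A1 they were LOC100506930 (0.907), FGF18 (1.08), PLAT (1.102), C8orf4 (1.11) and MIR1307 (1.14), in log2 units. The profile of ALDH1A1 itself spans 5.08. LOC100506930 was 5.17 and 5.61 FPKM in high-potential, 0 and 6.66 in parental accelerated and 0.109 and 0.254 in high-to-low libraries, so it shared the split of the parental accelerated libraries at a lower level. MIR1307 is a microRNA gene, and a gene body that short makes its FPKM uncertain. PLAT, tissue plasminogen activator, was 17.7 and 28.2 FPKM in high-potential, 2.17 and 10.2 in parental accelerated and 1.92 and 3.28 in high-to-low libraries.

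For ALDH1L2 the closest were CAPG (0.143), MCTP1 (0.187), COMTD1 (0.193), NME4 (0.195) and NEK11 (0.233), against a span of 2.33. CAPG, an actin-capping protein, was 29.6 and 19.8 FPKM in high-potential, 79.6 and 77.1 in parental accelerated and 92.8 and 91.9 in high-to-low libraries. Each profile has 6 points from the same libraries and was picked from 12135 genes, so the likeness is a description.

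**Figure D5:**
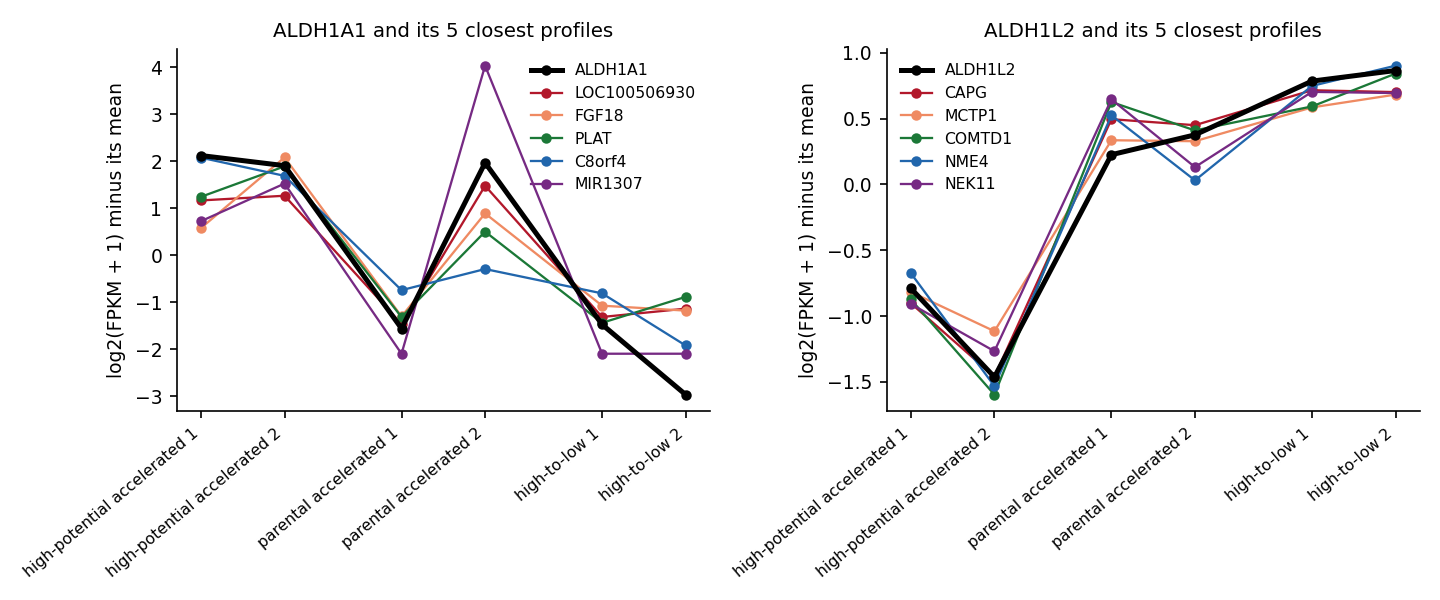
Profiles of log2(FPKM + 1), each minus its mean over the 6 libraries, for ALDH1A1 (left) and ALDH1L2 (right) in black with their 5 closest genes in colour. The genes closest to ALDH1A1 differ from it by 0.907 to 1.14 (root mean square, log2 units), and those closest to ALDH1L2 by 0.143 to 0.233.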

How the data were processed

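Each deposited table holds a single FPKM value per gene symbol for 1 library, as the authors made it. Per the submitters' processing notes, TopHat2 2.0.13 and Cuffnorm 2.2.1 were run with hg19. Neither the annotation nor the way libraries were scaled is stated there. The SMART-Seq kit named in the labels' protocols does not record strand, so reads of a gene and of an antisense partner are not told apart. Relative depth was read from values under 0.3 FPKM, as the most common ratio (within 3%) between libraries.

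A gene was kept where 2 or more libraries reached 1 FPKM. The deposited FPKM were taken to log2(FPKM + 1), and limma 3.58.1 (R 4.3.3) fitted the 3 groups together with a variance trend, which left 3 residual degrees of freedom. Calls are at a two-sided Benjamini-Hochberg adjusted p under 0.05 over all tested genes. The fit was tested on 5 simulated sets for high-potential against high-to-low. It called 10.4% of simulated log2 differences of 1, 59.7% of those of 2 and 88.8% of those of 4. Of genes without a simulated difference it called 0.0235%. A member that was not called may thus still differ. Single values were tested by exact permutation. Alternatives were another pseudocount, no filter, median ratio scaling, no variance trend, the compared groups alone, a replicate block, a term for the label code, and leaving out each library.

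Deviations of same-numbered libraries from their group means correlated across genes in each pair of groups (0.187, 0.158 and 0.281), all above the limit of 0.1 set for pairing. The pairing comes from these values, since no label calls the numbers a pairing, and blocked values stand beside the results whose call they change. With 2 libraries a group there are few ways to match them, so the check cannot establish a pairing. In the high-to-low group the code starts do not follow the replicate numbers.

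All 10 members are named. From each list the called genes are named or, with none, the 2 of greatest mean FPKM, as are the 5 closest profiles of ALDH1A1 and of a called member; ALDH16A1, the least abundant ALDH genes and some list genes with an unadjusted p under 0.05 were named after their values were seen, and another such result is not reported here. The members, lists and tests were chosen with earlier results of these data known.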

Additional observations from a re-analysis of the deposited data

How the results depend on the processing

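Of the members' differences under settings other than leaving out a library, 257 kept their direction and side of the threshold, 4 reversed, 5 lost a call and 4 gained one. In high-potential against high-to-low, where 1 member and 97 genes were called, 0 members and 54 genes were called with a pseudocount of 0.1, 0 and 39 with no filter, 0 and 54 with a label code term, and 0 members with median ratio scaling. With the replicate block 2 members and 944 genes were called. With the compared groups alone the 1 member called was ALDH1A1 (limma adjusted p = 0.0362), and ALDH1L2 lost its call (limma adjusted p = 0.0618). In high-potential against parental accelerated, where 0 members and 60 genes were called, the replicate block gave 2 members and 546 genes, and genes called numbered 31 with a pseudocount of 0.1, 38 with no filter, 105 with the label code term and 39 with the compared groups alone. In parental accelerated against high-to-low 2 genes were called, against 4 with a pseudocount of 0.1, 7 with the label code term and 7 with the compared groups alone. For both accelerated groups against high-to-low 8 genes were called, against 3 with no filter, 17 with the replicate block and 15 with the label code term. The block changed no other call of a member.

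Differences that reversed were those of ALDH1B1 in parental accelerated against high-to-low with median ratio scaling (0.00945), ALDH2 (0.33) and ALDH7A1 (0.11) in the same comparison with the label code term, and ALDH3B1 (0.30) for both accelerated groups with that term. Leaving out 1 library in turn gave 0 to 1 members and 13 to 115 genes called in high-potential against high-to-low, 14 to 38 genes against parental accelerated, 4 to 7 genes in parental accelerated against high-to-low and 3 to 15 for both accelerated groups, with a lone library assumed to vary like the other groups. The range crossed 0 in high-potential against high-to-low for ALDH1B1 (-0.385 to 0.159) and ALDH3B1 (-1.38 to 0.0357). In parental accelerated against high-to-low it did so for ALDH1B1 (-0.27 to 0.27), ALDH2 (-0.56 to 0.24), ALDH3A1 (-0.43 to 0.75), ALDH3B1 (-0.18 to 0.83) and ALDH7A1 (-0.36 to 0.13). In high-potential against parental accelerated it did so for ALDH1B1 (-0.31 to 0.0818), ALDH3A2 (-0.25 to 0.14) and the summed FPKM (-84.4 to 150), and for both accelerated groups for ALDH1B1 (-0.33 to 0.21) and ALDH3B1 (-0.67 to 0.33). The cause of these shifts was not tested. With a parental accelerated library left out, the member called in high-potential against high-to-low was ALDH1A1, and ALDH1L2 lost its call.

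With 2 libraries a group, exact permutation cannot pass 0.05, and total depth is unknown, so the precision of low members such as ALDH1A3 and ALDH1L2 cannot be given from counts.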
